A study of Homo sapiens with 8 samples.

Results

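The regions described here are stretches of DNA recovered with the nucleoporin NUP98 on human chromosomes 16, 17, 19, 20 and 22. They were taken from the deposited region lists of embryonic stem cells (ESCs) and neural progenitor cells (NeuPCs), and a region was a member if it lay more than 5 Mb from both ends of its chromosome in the hg19 build. The rule used position alone, and it took 266 of 2499 regions in ESCs and 367 of 3205 in NeuPCs, 633 of 5704 in all. A further 54 ESC and 69 NeuPC regions on the same chromosomes lay closer to an end and were left out. ESCs were the human line HUES6, and NeuPCs were differentiated from HUES6 in culture, so both lists come from 1 cell line. Both pull-downs used a rabbit polyclonal antibody against NUP98 (catalogue number 2292) on cells fixed in 1% formaldehyde for 10 min. The study had 8 libraries in all, 5 made with antibodies to NUP98 and 3 with normal rabbit IgG as the control, and those of neurons and IMR90 fibroblasts were not analysed here. Region lists hold no expression values, so the labelled cell types could not be checked against marker genes.

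Each cell type had 1 NUP98 library and 1 list, so there was no spread between replicates, and no difference below was tested for significance. The intervals are exact 95% intervals that cover counting error only, and they treat regions as independent of each other. The read depth behind the lists is not given in them. The number of regions in a list therefore cannot be separated from its depth and its threshold.

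NUP98 is a component of the nuclear pore complex, the channel between nucleus and cytoplasm, and it carries repeats rich in glycine, leucine, phenylalanine and glycine that bind transport receptors. Unlike the scaffold of the pore it is mobile, and a pool of it is found inside the nucleus away from the pores, where it can contact chromatin. Each chromosome fills its own territory in the nucleus. Gene-rich chromosomes tend to have territories towards the centre of the nucleus, whereas gene-poor chromosomes and silent chromatin tend to lie at the lamina. The position of a region in the nucleus was not measured in these lists.

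The gene content of these chromosomes was checked against RefSeq genes placed on GRCh38.p14, used for counts per chromosome only. The 5 chromosomes held 4462 protein-coding genes, 12.9 per Mb, and the 17 other autosomes held 14664, 5.80 per Mb. This count covers whole chromosomes, ends included, whereas the regions were counted away from the ends. Chromosome 19 had the most of any autosome (24.8 genes per Mb) and chromosome 17 the second most (14.04). Chromosomes 16 (9.47), 22 (8.88) and 20 (8.35) ranked 4, 5 and 6 of the 22 autosomes. Chromosome 11, which is not a member, had 9.63 genes per Mb and ranked between 17 and 16. The group was thus gene-rich, but on genes per Mb only chromosomes 17 and 19 lay above all other autosomes.

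NUP98 regions were denser on these chromosomes than on the other autosomes in both lists, by a much smaller factor than genes were. In ESCs there were 0.902 regions per Mb (95% interval 0.797 to 1.02, 266 regions) on the 5 chromosomes and 0.773 (0.738 to 0.810, 1830 regions) on the other autosomes, a ratio of 1.17 (1.02 to 1.33). In NeuPCs there were 1.24 regions per Mb (1.12 to 1.38, 367 regions) against 1.02 (0.975 to 1.06, 2403 regions), a ratio of 1.22 (1.09 to 1.37). The length counted was the hg19 length without 5 Mb at each end, 295 Mb for the 5 chromosomes and 2366 Mb for the others, assembly gaps included. The 5 chromosomes thus made up 11.1% of this length and held 12.7% (11.3 to 14.2) of autosomal regions in ESCs and 13.2% (12.0 to 14.6) in NeuPCs. The lower bound of the ESC ratio is close to 1, and it fell below 1 when chromosome 17 (ratio 1.11, interval 0.956 to 1.29) or chromosome 20 (1.13, 0.978 to 1.31) was left out, or when 10 Mb were removed at each end (1.15, 0.992 to 1.33).

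The densities differed between the 5 chromosomes, but their intervals overlapped each other in both lists. In NeuPCs, chromosome 19 held 75 regions (1.53 per Mb, interval 1.20 to 1.91) and chromosome 17 held 107 (1.503 per Mb, 1.23 to 1.82), the highest densities of the 22 autosomes. Both lay above the densest of the 17 other autosomes, chromosome 18, at 1.20 per Mb (0.958 to 1.495), whose interval overlapped theirs. The remaining members lay within the range of the other autosomes, which ran from 0.839 per Mb on chromosome 21 to 1.20. Chromosome 20 held 60 NeuPC regions (1.13 per Mb, 0.863 to 1.46), chromosome 16 held 85 (1.06 per Mb, 0.845 to 1.31) and chromosome 22 held 40 (0.968 per Mb, 0.692 to 1.32). Ratios between single members were not computed, so the order of the 5 in NeuPCs was not assessed. Without chromosomes 17 and 19, a setting chosen after the values were seen, the NeuPC ratio was 1.04 (0.893 to 1.21). The length counted includes long stretches with no region on chromosomes 16, 20 and 22, given below. This ratio was not computed with those stretches taken off.

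In ESCs, the densities ranked the chromosomes in another order. Chromosome 17 held 73 regions (1.03 per Mb, interval 0.804 to 1.29) and chromosome 20 held 54 (1.02 per Mb, 0.765 to 1.33), and these were the highest densities of the 22 autosomes, just above chromosome 9 with 0.953 per Mb. Chromosome 19, the densest in NeuPCs, ranked 10 of 22 in ESCs with 43 regions (0.875 per Mb, 0.633 to 1.18). Chromosome 22 held 38 regions (0.920 per Mb), and chromosome 16 held 58 (0.722 per Mb) and ranked 16 of 22. The intervals of all 5 members overlapped each other in ESCs as in NeuPCs, so no order among them can be read from these counts.

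**Figure D1:**
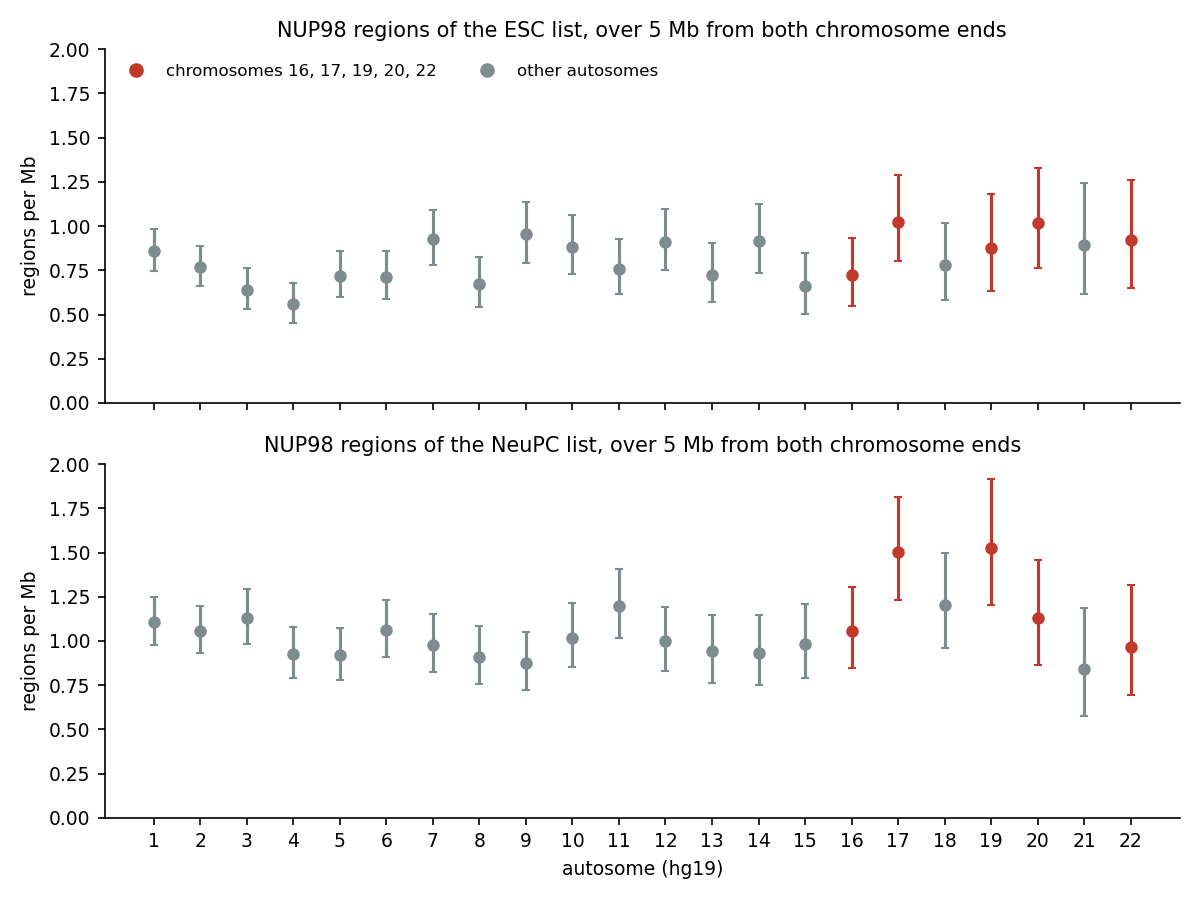
Regions per Mb (vertical axis) on each autosome (horizontal axis) in the ESC list (top) and the NeuPC list (bottom), with exact 95% Poisson intervals as bars; red points are chromosomes 16, 17, 19, 20 and 22, grey points the other autosomes. In NeuPCs chromosomes 17 and 19 stand at 1.503 and 1.53 regions per Mb, above every other autosome, but their intervals overlap those of chromosome 18 and some other grey points. In ESCs all 5 red points have intervals that overlap those of many grey points.

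The densities depend on the length that is counted. On chromosome 22 no region of either list lay between the 5 Mb limit and 16350279, a stretch of 11.4 Mb that includes most of the short arm of this acrocentric chromosome. On chromosome 16 the longest empty stretch ran from 35207360 to 47020439 (11.8 Mb), on chromosome 20 from 25756963 to 29936690 (4.18 Mb), on chromosome 19 from 23812894 to 27808378 (3.995 Mb) and on chromosome 17 from 21766161 to 25274787 (3.51 Mb). Chromosome 20 held a second empty stretch of over 3 Mb, from 12321102 to 15427221 (3.11 Mb). With such stretches of over 3 Mb taken off on every autosome, the ratio was 1.21 (1.06 to 1.38) in ESCs and 1.27 (1.14 to 1.42) in NeuPCs. Chromosomes 19 (1.66 per Mb) and 17 (1.58 per Mb) then still ranked first and second in NeuPCs. Chromosome 22, which ranked 15 of 22 in NeuPCs on the full length, then ranked 4 (1.34 per Mb). Chromosome 20 ranked 5 in NeuPCs (1.31 per Mb). In ESCs, chromosome 21 ranked first (1.37 per Mb) and chromosome 22 second (1.27 per Mb). Chromosome 20 was at 1.18 per Mb in ESCs and chromosome 17 ranked 6 (1.08 per Mb). Apart from the first 2 in NeuPCs, the order thus depended on the length used in both lists.

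Region density and gene density were set side by side over the 22 autosomes, as a description. In NeuPCs, Pearson's r was 0.789 and Spearman's rho 0.543, and without chromosomes 17 and 19 r was 0.363 and rho 0.391 over 20 autosomes. In ESCs, r was 0.356 and rho 0.417, and without chromosomes 17 and 19 r was 0.353 and rho 0.343. The strong r in NeuPCs therefore rested on those 2 chromosomes. The points of a list share 1 library, and base composition and mappability, which vary with gene density, were not measured here.

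**Figure D2:**
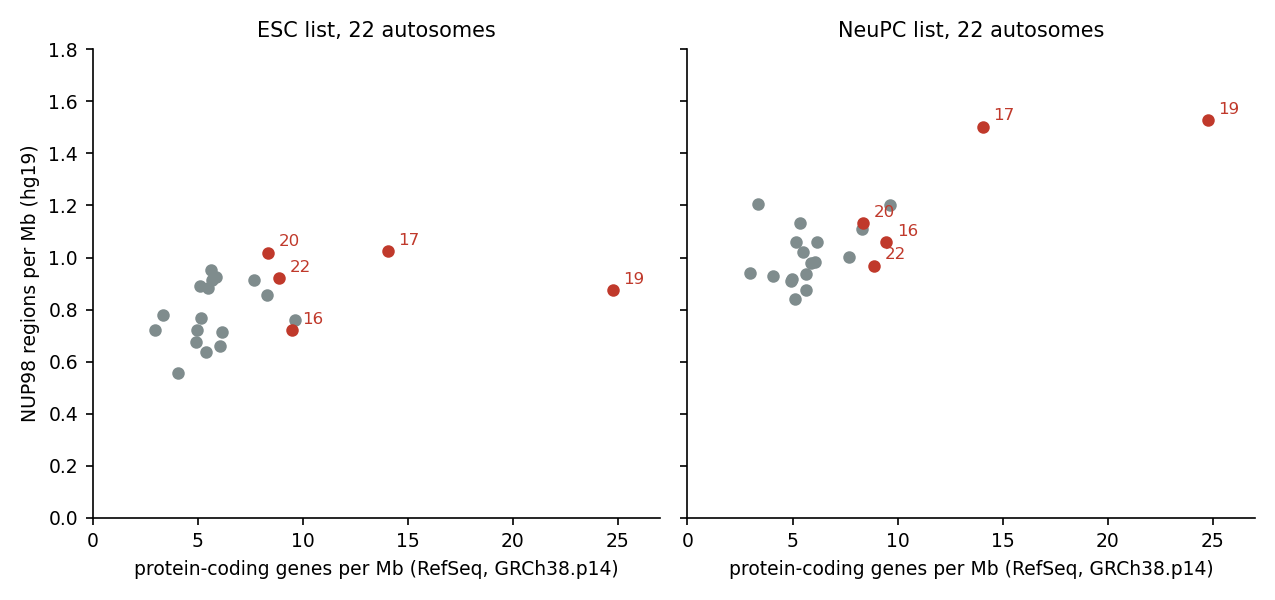
Protein-coding genes per Mb (horizontal axis, RefSeq genes on GRCh38.p14) against NUP98 regions per Mb (vertical axis, hg19) for the 22 autosomes, in the ESC list (left) and the NeuPC list (right); members are red and carry their chromosome number. Chromosome 19 lies far to the right at 24.8 genes per Mb in both panels, but at 1.53 regions per Mb in NeuPCs and 0.875 in ESCs.

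NeuPCs had more regions than ESCs on the 5 chromosomes, and the excess was much the same elsewhere. There were 1.38 NeuPC regions for each ESC region on the 5 chromosomes (interval 1.18 to 1.62) and 1.31 (1.24 to 1.40) on the other autosomes. By chromosome, the ratio was 1.74 (1.18 to 2.60) on chromosome 19, 1.47 on chromosomes 16 (1.04 to 2.08) and 17 (1.08 to 2.00), 1.11 (0.756 to 1.64) on chromosome 20 and 1.05 (0.658 to 1.69) on chromosome 22. Chromosome 19 ranked second of the 22 autosomes, after chromosome 3 with 1.78 (1.41 to 2.24), and chromosome 22 ranked 19. When each list was cut to its top-scoring 50%, the ratio was 1.30 (1.04 to 1.63) on the 5 chromosomes and 1.33 (1.21 to 1.45) on the others. With a single threshold of 60 for both lists, although scores may not be comparable between them, the ratio was 2.19 (1.65 to 2.94) on the 5 chromosomes and 2.43 (2.17 to 2.73) on the others.

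The spacing of neighbouring regions gives the same positions on a finer scale. The median distance from the end of a region to the start of the next was 673 kb (interval 558 to 833, 261 distances) in ESCs on the 5 chromosomes and 792 kb (730 to 849, 1813 distances) on the other autosomes. In NeuPCs it was 473 kb (389 to 539, 362 distances) against 612 kb (575 to 656, 2386 distances), and these intervals did not overlap. The middle 50% of distances on the 5 chromosomes ran from 275 to 1414 kb in ESCs and from 194 to 1041 kb in NeuPCs. By chromosome, the NeuPC median was 406 kb on chromosome 19, the shortest of the 22 autosomes, then 441 kb on 16, 460 kb on 17, 526 kb on 20 and 720 kb on 22. In ESCs it was 568 kb on chromosome 20, 570 kb on 22, 677 kb on 16, 695 kb on 17 and 834 kb on 19.

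Regions very close together were rare on these chromosomes. Distances of at most 10 kb made up 1.15% (interval 0.238 to 3.32, 3 of 261) in ESCs and 2.43% (1.77 to 3.24, 44 of 1813) on the other autosomes. A single group of 18 regions supplied much of the latter, and without it, a setting chosen after the values were seen, the share on the other autosomes was 1.504% (0.994 to 2.18, 27 of 1795). In NeuPCs they made up 1.66% (0.611 to 3.57, 6 of 362) against 1.30% (0.884 to 1.84, 31 of 2386). Without the stretch of chromosome 17 from 18965249 to 19093536, described below and also left out after the values were seen, the NeuPC share was 0.843% (0.174 to 2.44, 3 of 356), below that of the other autosomes. Distances of at most 100 kb made up 10.3% (6.93 to 14.7) in ESCs against 10.6% elsewhere (9.21 to 12.1), and 14.4% (10.9 to 18.4) in NeuPCs against 11.3% (10.1 to 12.7). In ESCs the closest neighbours lay 105 bp apart on chromosome 22, at 32626959 to 32627080 (score 51.91) and 32627186 to 32627309 (score 51.40). The other 2 ESC pairs within 10 kb lay 503 bp apart on chromosome 22, starting at 23433464, and 4342 bp apart on chromosome 20, starting at 29936691. In NeuPCs the closest neighbours lay 1502 bp apart on chromosome 17.

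**Figure D3:**
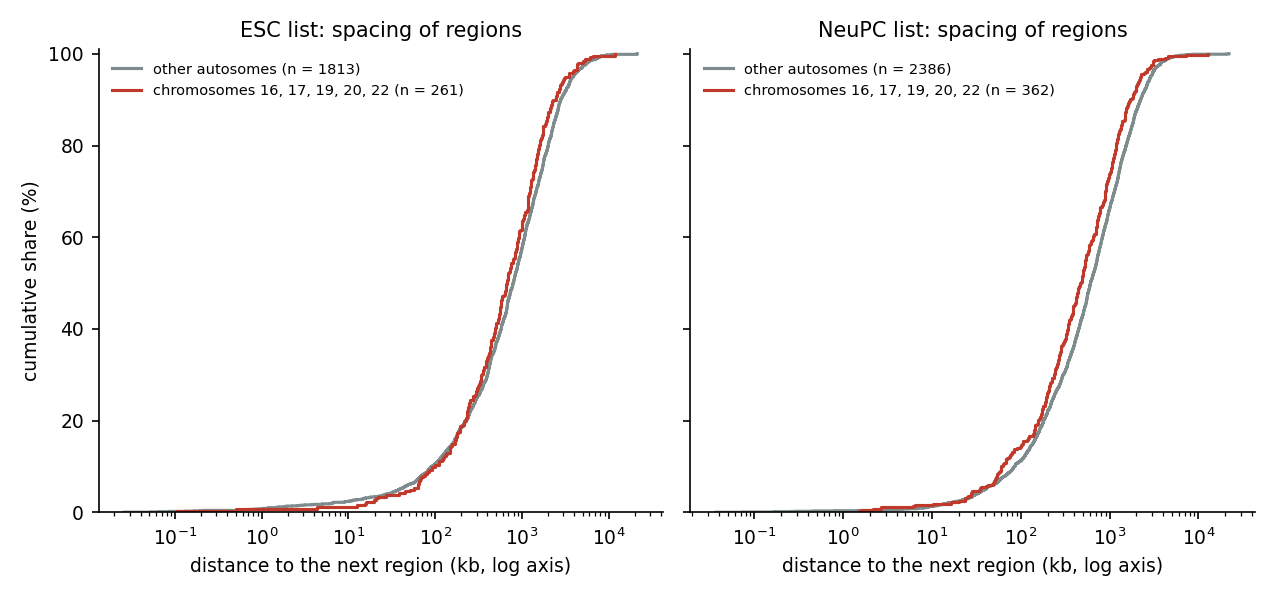
Cumulative share of the distances between neighbouring regions (vertical axis, %) by distance in kb (horizontal axis, log scale), for chromosomes 16, 17, 19, 20 and 22 (red) and the other autosomes (grey), in the ESC list (left) and the NeuPC list (right). The red curve lies left of the grey one over most of its course in NeuPCs, where the medians are 473 and 612 kb, and the curves come together near 100 kb in ESCs.

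Counted in windows of 1 Mb, most windows of the 5 chromosomes held a region, and no window held more than 6. Of the 294 windows on the 5 chromosomes, 124 (42.2%) held no ESC region and 94 (32.0%) no NeuPC region, against 48.8% and 39.3% of the 2361 windows on the other autosomes. The variance of the count divided by its mean, which is 1 where counts vary as independent events at an even rate, was 1.08 in ESCs and 1.17 in NeuPCs. On the other autosomes it was 1.31 in ESCs, where 1 window held 19 regions, and 1.17 in NeuPCs, so in NeuPCs the members were spread no more evenly than regions elsewhere. The densest ESC window held 5 regions, on chromosome 17 from 21000001 to 22000000, with scores of 51.94 to 66.67 and 1 NeuPC region in the same window. The densest NeuPC window held 6 regions, on chromosome 17 from 19000001 to 20000000, with scores of 50.18 to 104.62 and 2 ESC regions.

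Windows that were rich in 1 list were only weakly rich in the other. The counts of the 2 lists per window had a Pearson's r of 0.133 and a Spearman's rho of 0.188 over the 294 windows, beside 0.117 and 0.132 over the windows of the other autosomes. Windows that are empty in both lists, such as those on the short arm of chromosome 22, enter these values as 0 and 0. Over the 238 windows with a region of either list, from which windows empty in both are missing by construction, r was -0.12 and rho -0.16. Both lists had a region in 132 windows (44.9%), ESCs alone in 38, NeuPCs alone in 68 and neither in 56.

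No member overlapped a region of the other list, and no region on the other autosomes did so either. Of the 266 ESC members, 0 overlapped a NeuPC region or lay within 1 kb of one, which allows a share of up to 1.38%. On the other autosomes, 0 of 1830 overlapped and 2 lay within 1 kb. The paper describes most ESC and NeuPC sites, though not all, as specific to their cell type among those it compared. Whether its sites are those of the deposited lists was not tested. Within 10 kb of a NeuPC region lay 5 ESC members (1.88%, interval 0.613 to 4.33) against 2.68% (1.99 to 3.52) elsewhere, and within 100 kb lay 61 (22.9%, 18.0 to 28.5) against 21.4% (19.5 to 23.3). Of the NeuPC members, 69 of 367 (18.8%, 14.9 to 23.2) lay within 100 kb of an ESC region, against 16.4% (14.9 to 17.9) elsewhere. A denser list also lies closer to any position, and both lists were denser on the 5 chromosomes.

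The median distance from an ESC member to the nearest NeuPC region was 271 kb (220 to 294), against 307 kb (284 to 331) on the other autosomes. From a NeuPC member to the nearest ESC region it was 307 kb (278 to 337) against 405 kb (380 to 429). The closest pair lay 1936 bp apart on chromosome 17, the NeuPC region from 66113639 to 66113757 (score 65.68) and the ESC region from 66115694 to 66115822 (score 55.41). The second closest lay 3426 bp apart on chromosome 20, with the NeuPC region at 6253871 to 6254002 (score 57.04) and the ESC region at 6257429 to 6257546 (score 52.00). The third lay 4077 bp apart on chromosome 19, with the NeuPC region at 51960220 to 51960318 (score 58.12) and the ESC region at 51964396 to 51964501 (score 51.48). The highest score in these 3 pairs was 65.68, so none of them joined high-scoring regions of both lists.

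**Figure D4:**
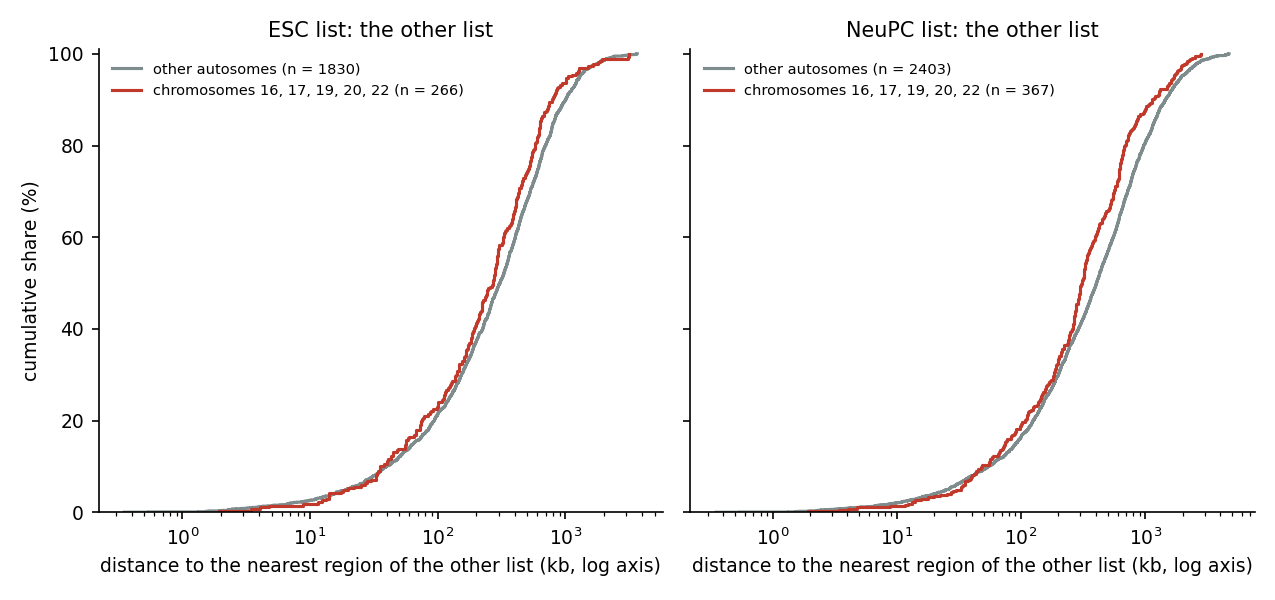
Cumulative share of regions (vertical axis, %) by the distance in kb to the nearest region of the other list (horizontal axis, log scale), from ESC regions (left) and from NeuPC regions (right), on chromosomes 16, 17, 19, 20 and 22 (red) and the other autosomes (grey). Both red curves start above 1 kb, since no member lies within 1 kb of the other list, and reach 50% at 271 kb and 307 kb.

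The median length of the regions did not set these chromosomes apart. The ESC region on chromosome 19 that starts at 50411429 is described on its own below and is left out of the length and score values that follow, except those given for single chromosomes. The median length of the other 265 ESC members was 120 bp (interval 118 to 123) against 120.5 bp (120 to 121) on the other autosomes, and that of the 367 NeuPC members was 121 bp (118 to 122) against 121 bp (120 to 122). The middle 90% of member lengths ran from 86.0 to 164 bp in ESCs and from 89.3 to 153 bp in NeuPCs. The medians of single chromosomes ran from 118 bp on 16 to 124 bp on 22 in ESCs, and from 117 bp on 19 to 125 bp on 16 in NeuPCs. ESC members of at least 150 bp were 30 of 265 (11.3%, 7.77 to 15.8), against 7.70% (6.52 to 9.02) elsewhere. NeuPC members of that length were 22 of 367 (5.99%, 3.79 to 8.94), against 6.95% (5.97 to 8.04). NeuPC members of at least 200 bp were 9 of 367 (2.45%, 1.13 to 4.60), against 0.957% (0.608 to 1.43). A stretch of chromosome 17, described below, supplied 5 of these 9. Without it, a setting chosen after the values were seen, they were 4 of 361 (1.11%, 0.303 to 2.81). NeuPC members of at least 250 bp are given with that stretch.

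Each region carries a score written by the authors' peak caller. No unit is given with it, no member scored below 50, and it served to describe regions within a list. The median score of the 265 ESC members was 55.3 (interval 54.0 to 55.8) against 54.3 (53.9 to 54.6) on the other autosomes. The median of the NeuPC members was 59.4 (58.8 to 59.9) against 59.3 (59.1 to 59.5). By chromosome, ESC medians ran from 54.0 on chromosome 20 to 56.2 on 19, and NeuPC medians from 58.1 on 16 to 59.7 on 20. All of these lay within the range of the other autosomes, which was 53.7 to 56.7 in ESCs and 57.8 to 61.2 in NeuPCs. Scores of at least 60 were held by 71 of 265 ESC members (26.8%, 21.6 to 32.6) against 23.8% elsewhere (21.9 to 25.8), and by 158 of 367 NeuPC members (43.1%, 37.9 to 48.3) against 44.2% (42.2 to 46.2).

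Many scores were held by more than 1 region. The 265 ESC members had 171 different scores to 2 decimals, of which 124 were held by 1 member, and the score of 210 of them (79.2%) was also found on the other autosomes. The 367 NeuPC members had 231 different scores, of which 155 were held by 1 member, and 299 members (81.5%) shared theirs with a region on the other autosomes. The most common was 51.40 in ESCs, held by 8 members, and 58.14 in NeuPCs, held by 11. The relation of length and score was weak and depended on the measure. Spearman's rho between length and score was -0.11 over the ESC members and -0.17 over the NeuPC members, close to -0.10 and -0.17 elsewhere. Pearson's r on the log2 scale was 0.01 in ESCs and 0.12 in NeuPCs, against 0.18 and 0.05 elsewhere. The separate region was left out of the ESC members, whereas no region was left out elsewhere. There, ESC lengths reached 4410 bp and scores 2177.08, so the 2 ESC values of r are not on equal terms. The 17 ESC members under 90 bp had a median score of 62.0 and the 19 NeuPC members under 90 bp one of 68.0. The 30 ESC members of at least 150 bp had a median score of 55.7 and the 22 NeuPC members of that length one of 63.5, so in NeuPCs both the shortest and the longest members scored above the median of 59.4.

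**Figure D5:**
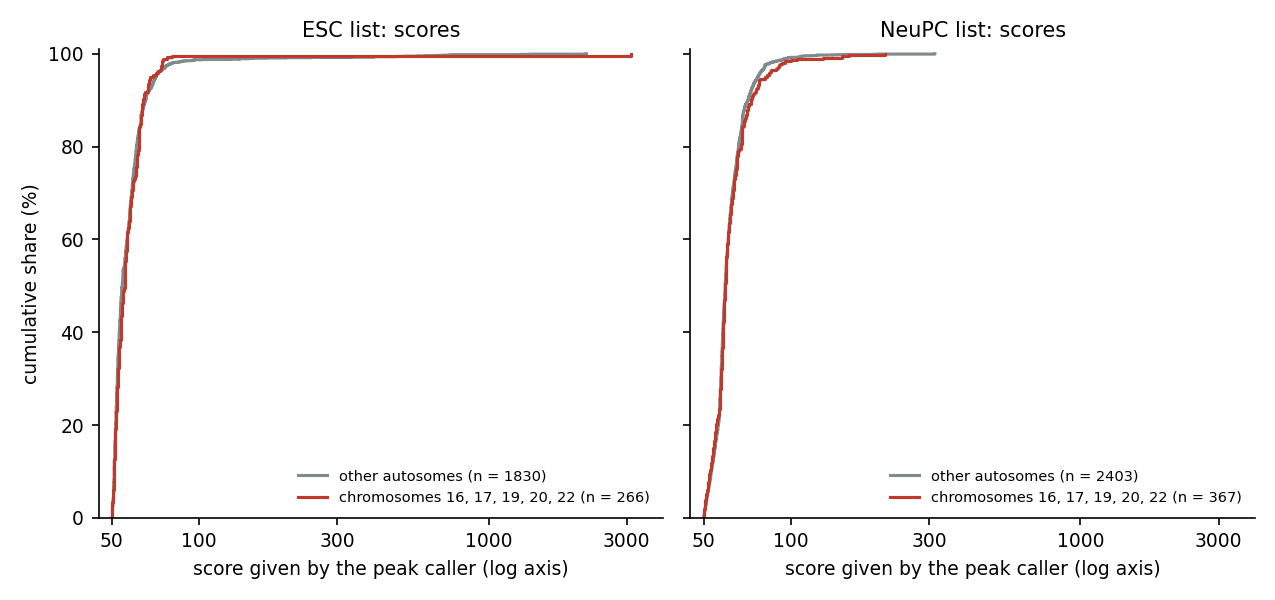
Cumulative share of regions (vertical axis, %) by score (horizontal axis, log scale, no unit given) on chromosomes 16, 17, 19, 20 and 22 (red, the chromosome 19 region with a score of 3100 included) and on the other autosomes (grey), in the ESC list (left) and the NeuPC list (right). In both lists the red and grey curves run together over most of the range, with medians near 55 in ESCs and 59 in NeuPCs.

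At the upper end of the scores, the intervals of the members and of the other autosomes overlapped in both lists. In ESCs 1 member of 265 besides the separate region scored at least 80 (0.377%, interval 0.00955 to 2.08) against 39 of 1830 elsewhere (2.13%, 1.52 to 2.90). Scores of at least 100 were held by 0 of 265 members, against 23 elsewhere (1.26%, 0.798 to 1.88). A count of 0 allows a share of up to 1.38%. The separate region was left out of the members, whereas no region was left out elsewhere, where scores reached 2177.08. In NeuPCs 20 of 367 members scored at least 80 (5.45%, 3.36 to 8.29) against 82 of 2403 (3.41%, 2.72 to 4.22). Scores of at least 100 were held by 5 (1.36%, 0.444 to 3.15) against 18 (0.749%, 0.445 to 1.18).

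A single stretch of chromosome 17 supplied much of the upper end in NeuPCs. It ran from 18965249 to 19093536 and held 6 NeuPC regions in 128288 bp, of which they covered 1660 bp. Their scores were 129.19, 150.47, 104.62, 50.18, 92.90 and 89.70 in order of position, with lengths of 354, 323, 283, 104, 337 and 259 bp. All but the region of 104 bp were longer than 250 bp and scored above 80. The nearest ESC region lay 181 kb away. With regions up to 100 kb apart joined, no other group on the 5 chromosomes held as many in NeuPCs, and the largest on the other autosomes held 5.

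Without this stretch, a setting chosen after the values were seen, 2 of 361 NeuPC members scored at least 100 (0.554%, 0.0672 to 1.99), a share below the 0.749% elsewhere where it had been above it, and 15 scored at least 80 (4.16%, 2.34 to 6.76). Members of at least 250 bp were 7 of 367 with the stretch (1.91%, 0.770 to 3.89) and 2 of 361 without it (0.554%, 0.0672 to 1.99). On the other autosomes they were 9 of 2403 (0.375%, 0.171 to 0.710). The interval with the stretch lay above that of the other autosomes, and the interval without the stretch overlapped it. The density ratio in NeuPCs was 1.20 (1.08 to 1.35) without the stretch. Which genes or repeats the stretch holds in hg19 was not analysed here.

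The highest NeuPC score was 211.47, on chromosome 19 from 21890044 to 21890180, a region of 137 bp with another NeuPC region 27.4 kb away and the nearest ESC region 317 kb away. The second was 158.51, on chromosome 16 from 25771421 to 25771480, which at 60 bp was also the shortest NeuPC member. The next 3 scores, 150.47, 129.19 and 104.62, belonged to the stretch on chromosome 17. The longest NeuPC member, 362 bp on chromosome 17 from 41466036 to 41466397, scored only 50.77, and 351 of the 367 members scored higher. It lay 83.7 kb from the ESC member from 41381646 to 41382338, which was 693 bp long and scored 80.77. That ESC region was both the longest and the highest-scoring of the 265. With the separate chromosome 19 region set aside, the longest members of both lists thus lay in the same part of chromosome 17.

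The next ESC scores were 77.65 on chromosome 22 from 34928464 to 34928566, 75.28 on chromosome 19 from 9035110 to 9035254 and 74.38 on both chromosome 16 from 47068089 to 47068159 and chromosome 17 from 26211595 to 26211661. The last of these was 67 bp long, the shortest ESC member, and a NeuPC region with a score of 77.70 lay 18.0 kb away. The region on chromosome 16 is the first ESC region after the empty stretch and had a NeuPC region 11.6 kb away. After the 693 bp region, the longest ESC members were 318 bp on chromosome 22 from 21684336 to 21684653 (score 61.84) and 200 bp on chromosome 16 from 32678124 to 32678323 (score 66.37).

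The ESC region on chromosome 19 that starts at 50411429 stood apart from every other member. It was 1641 bp long, 13.7 times the median ESC member and 2.37 times the next longest. Its score was 3100, and the next highest among the members was 80.77. As no unit or scale of the score is given, this gap cannot be read as a strength of binding. No region of the ESC list scored higher, and 1 was longer. It made up 4.77% of the bases covered by ESC members. The other 42 ESC regions on chromosome 19 scored at most 75.28 and were at most 165 bp long. The preceding ESC region lay 1679 kb away, and the following one lay 45.2 kb away, from 50458260 to 50458411, with a score of 55.30 and a length of 152 bp. In NeuPCs no region lay within 100 kb of its centre, 4 lay within 500 kb and 6 within 1 Mb, and the nearest, 227 kb away from 50640272 to 50640439, scored 51.88. Leaving this region in or out moved the ESC medians by 0.5 bp in length, from 120 to 120.5 bp, and by 0.03 in score.

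Regions lay close to the 5 Mb limit on both of its sides. In ESCs the members closest to it lay 5.09 and 5.18 Mb from an end, both on chromosome 17, with scores of 50.86 and 54.77, and the closest regions left out lay 4.94 Mb (chromosome 16, score 59.59) and 4.86 Mb (chromosome 20, score 52.43) from an end. In NeuPCs the members closest to it lay 5.08 Mb (chromosome 22, score 58.14) and 5.17 Mb (chromosome 17, score 52.24) from an end, and the closest regions left out lay 4.92 Mb (chromosome 16, score 66.15) and 4.84 Mb (chromosome 19, score 61.72) away. Between the limit and the ends, the 5 chromosomes held 1.08 ESC regions per Mb (0.811 to 1.41) and 1.38 NeuPC regions per Mb (1.07 to 1.75), against 1.21 (1.05 to 1.38) and 1.11 (0.953 to 1.28) on the other autosomes.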

How the data were processed

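The data were 2 lists of NUP98 ChIP-Seq regions, for ESCs and NeuPCs, each a BED file deposited by the authors with a score per region and no unit or read number. The submitters' processing notes name hg19 and GRCh37. The lists name MACS, whereas the methods of the study name the Genomatix software with the Audic-Claverie algorithm. The version, parameters and control library are not given in the sources used here, so which reads were set against which control is unknown. A list called at another depth or threshold would hold other regions.

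Positions are given counted from 1. hg19 chromosome lengths came from GenomeInfoDb 1.38.1. Densities have exact Poisson intervals, ratios exact conditional binomial intervals, shares exact Clopper-Pearson intervals and medians order-statistic intervals, all at 95%. Scripts were checked on simulated lists. Python 3.11.15, numpy 2.4.6, scipy 1.17.1 and pandas 2.3.3 were used.

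With 1 library per cell type no test was made. The rule, the gene counts and the regions named (highest scores, longest, closest pairs, densest windows and groups, and those at the 5 Mb limit) were chosen with earlier results of these data known. No gene or region sequence is given, because the tables used here are on GRCh38.p14 and coordinates were not converted. The IMR90 list was not used. Alternatives covered the end margin, the length counted, score thresholds, joining of regions and each chromosome left out.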

Additional observations from a re-analysis of the deposited data

How the results depend on the processing

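Of 111 alternatives over 15 results, 93 stayed within the 95% interval of the value given, 18 moved out of it, and 0 ratios turned to the other side of 1. With each of the 5 chromosomes left out in turn, the density ratio ran from 1.11 to 1.25 in ESCs and from 1.14 to 1.29 in NeuPCs. Without both chromosomes 17 and 19, chosen after seeing the data, it was 1.11 in ESCs and 1.04 in NeuPCs. The NeuPC value lay outside the interval of the value given. Both values count the empty stretches, and neither was computed with those taken off. Chromosomes 17 and 19 are the 2 densest in NeuPCs. The share of ESC distances within 10 kb on the other autosomes was 1.504% without 1 group of 18 regions, and that of NeuPC members was 0.843% without the chromosome 17 stretch, which turned its direction against the other autosomes.

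The other moves came with a higher score threshold, another distance or another denominator. As a share of the whole list, members were 10.6% in ESCs and 11.5% in NeuPCs. In the 50% of regions with the highest score, the median length was 117.5 bp (interval 109 to 124) in ESCs and 115 bp in NeuPCs, and 11.3% of ESC and 9.29% of NeuPC members lay within 100 kb of the other list. With scores of at least 60, the median spacing was 2778 kb in ESCs and 1041 kb in NeuPCs, and 11.1% of ESC and 5.06% of NeuPC members lay within 100 kb of the other list. Within 10 kb the shares were 1.88% and 1.36%, and within 1 Mb 93.6% and 87.7%. The NeuPC to ESC ratio was 2.19 with scores of at least 60 and 2.23 with scores of at least 55, where the other autosomes gave 2.43 and 2.37. With each list cut to its top-scoring 50%, the ratio stayed within its interval at 1.30, beside 1.33 on the other autosomes. Scores of at least 60 were held by 26.8% of ESC and 43.1% of NeuPC members, and the cause was not tested. No paired analysis was possible because only 1 list per cell type was used here and no test was made. The depth of the libraries was not used here, so no value was compared at equal depth.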
